A study of Homo sapiens with 8 samples.

Results

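MIR155HG, listed on older arrays as BIC, is the long non-coding RNA gene from whose transcript the microRNA miR-155 is cut. Its members here were chosen as all array features that the platform annotation assigns to this gene, 4 of 15246 features, and its level was followed over 8, 12 and 24 h of treatment. The study asked how gene expression in L363, an established human plasma cell line labelled as multiple myeloma, differs when IKKβ is inhibited. On each of 8 2-colour arrays, cDNA of L363 cells treated with the IKKβ inhibitor MLN120B at 12.5 µM, in Cy5, was set against cDNA of L363 cells that got only its solvent DMSO, in Cy3. Treatment lasted 8 h for 2 samples, 12 h for 3 samples and 24 h for 3 samples, at 37 °C. All groups are 1 cell line with no engineered change in the labels, so differences between patients are outside the design, and the labels do not state whether replicate samples were separate cultures.

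Values are the deposited log2 ratios, centred on the median of each array, and a negative value means a lower level with MLN120B. The direction is likely but not stated: the labels put treated cells in Cy5 and solvent in Cy3, and no array had the dyes exchanged. The base 2 is assumed from the largest size in the table, 12.4 on sample 2 at 8 h, which exceeds the 11.1 that a natural log ratio of 16-bit intensities could reach. MIR155HG was chosen by its measured log2 ratios on these same arrays, where it stood low at 24 h, and the choice compared all 3 times. Its values are therefore a description with no test, and SDs measure only the spread between these samples.

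As background, NF-κB transcription factors are held in the cytoplasm by IκB proteins until IKKβ marks the inhibitors for destruction. MIR155HG is known as an NF-κB and AP-1 responsive gene that activated B cells and many lymphomas express strongly. Its transcript, the primary miR-155, is cut by the nuclear enzyme Drosha to a hairpin and by the cytoplasmic enzyme Dicer to the mature microRNA, which pairs through its seed with target messengers and lowers them. The arrays measure the host transcript and not the mature microRNA.

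Both mature arms are shown because the host gene matters through them. The capitals mark the seed, bases 2 to 8, and the sequences are those of RefSeq in GRCh38.p14, on the plus strand of chromosome 21 at chr21:25573983-25574006 for the 5p arm and chr21:25574022-25574043 for the 3p arm.
hsa-miR-155-5p: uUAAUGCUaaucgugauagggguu
hsa-miR-155-3p: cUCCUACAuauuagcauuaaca
Among 2370 mature human microRNA names of the RefSeq table, 0 others carried the seed of the 5p arm and 0 others that of the 3p arm.

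The promoter of MIR155HG is shown because the inhibitor acts on a transcription factor pathway. It covers 250 bases before and 50 bases from the start of the gene on, at chr21:25561895-25562194, plus strand, of GRCh38.p14 from RefSeq, and the capitals mark, from left to right, the letters TGAGTCA and TATAAA.
MIR155HG promoter: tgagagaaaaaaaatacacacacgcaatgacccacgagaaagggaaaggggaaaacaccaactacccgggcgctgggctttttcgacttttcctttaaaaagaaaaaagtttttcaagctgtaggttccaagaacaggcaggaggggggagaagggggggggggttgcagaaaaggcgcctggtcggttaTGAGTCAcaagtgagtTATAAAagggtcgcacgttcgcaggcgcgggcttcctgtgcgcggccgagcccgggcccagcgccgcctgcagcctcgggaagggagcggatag
Both strands were searched and the marked motifs do not overlap. TGAGTCA, the letters bound by AP-1, begins at position -60 from the gene start and occurs in 4.96% of 34943 promoters of the same length. TATAAA, the core of the TATA box, begins at -44 and occurs in 11.6%. The degenerate NF-κB consensus, the κB motif, had 0 matches in this window and occurs in 5.90% of promoters. A match is a description of letters and not a binding site, and the lack of one says only that these letters are not in these 300 bases.

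The arrays differed widely in spread. They held values for 6344 to 13007 features. The numbers of the database entries in the labels fall into 3 runs of close values, called runs here: sample 3 of both later times forms run 1, sample 1 of both later times forms run 2 together with sample 2 of 8 h, and run 3 is sample 2 of both later times together with sample 1 of 8 h. The SD over features was 0.35 and 0.58 in run 1, 1.00 to 1.42 in run 2 and 0.21 to 0.28 in run 3, so a given ratio is further out on an array of run 3 than on one of run 2. The labelled cell type could not be checked against levels of its markers, since only ratios were used here. No signal intensities were used, so the signal over background of the MIR155HG features is unknown.

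As the mean of its features on each array, MIR155HG was near the array median at 8 h, with -0.18 on sample 1 and 0.15 on sample 2. At 12 h it stood at 0.19, -0.29 and -0.50 on samples 1, 2 and 3. At 24 h it stood at -1.24, -0.76 and -1.27 on samples 1, 2 and 3. All 3 samples at 24 h lay below every sample at 12 h and at 8 h, while the samples at 8 h and 12 h overlapped. The choice of the gene used these same values, and the share of all rows with such a separation was not counted. The means were -0.016 ± 0.23 at 8 h (SD, n = 2), -0.20 ± 0.35 at 12 h (SD, n = 3) and -1.09 ± 0.29 at 24 h (SD, n = 3). The neighbours 8 h and 12 h in this order therefore differed by less than their spread, and 24 h stood apart from both by more than it. Among named genes with a value, MIR155HG ranked 4th lowest of 4355 on sample 2 at 24 h, 18th of 3712 on sample 3 and 199th of 2696 on sample 1. At 8 h, 11.7% of named genes were lower on sample 1 and 59.2% on sample 2.

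The 4 features did not behave alike, and the gene mean blends them. They are called A to D here, in the order of how many arrays gave them a value: features A and B had values on all 8 arrays, feature C on 6 and feature D on 5. All 4 are annotated to the same RefSeq transcript, and which stretch of it each one covers is not given in the sources used here.

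Feature A stood at -0.35 on sample 1 and 0.59 on sample 2 at 8 h. At 12 h it stood at -0.70, -0.74 and -1.0 on samples 1, 2 and 3, and at 24 h at -3.31, -0.76 and -1.83. It was below 0 on 7 of 8 arrays, the exception being sample 2 at 8 h, and the lowest value, on sample 1 at 24 h, came from the widely spread run 2. Its means were 0.12 ± 0.67 at 8 h (SD, n = 2), -0.81 ± 0.16 at 12 h (SD, n = 3) and -1.97 ± 1.28 at 24 h (SD, n = 3).

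Feature B stood at -0.55 on sample 1 and 0.38 on sample 2 at 8 h. At 12 h it stood at -0.023, -1.14 and -0.95 on samples 1, 2 and 3, and at 24 h at -0.90, -1.50 and -1.90. It too was below 0 on 7 of 8 arrays with sample 2 at 8 h as the exception, but here the lowest values came from runs 1 and 3. Its means were -0.086 ± 0.66 at 8 h (SD, n = 2), -0.70 ± 0.60 at 12 h (SD, n = 3) and -1.44 ± 0.50 at 24 h (SD, n = 3).

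The other two features stood near or above 0. Feature C stood at 0.24 on sample 1 and -0.39 on sample 2 at 8 h, at 1.29 on sample 1 and 0.64 on sample 2 at 12 h, and at 0.48 on sample 1 and -0.073 on sample 3 at 24 h. Feature D stood at -0.056 and 0.006 at 8 h, at 0.061 on sample 2 and 0.45 on sample 3 at 12 h, and at -0.032 on sample 2 at 24 h. At 12 h both lay above 0 wherever they had a value, on the same arrays where A and B lay below it.

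**Figure D1:**
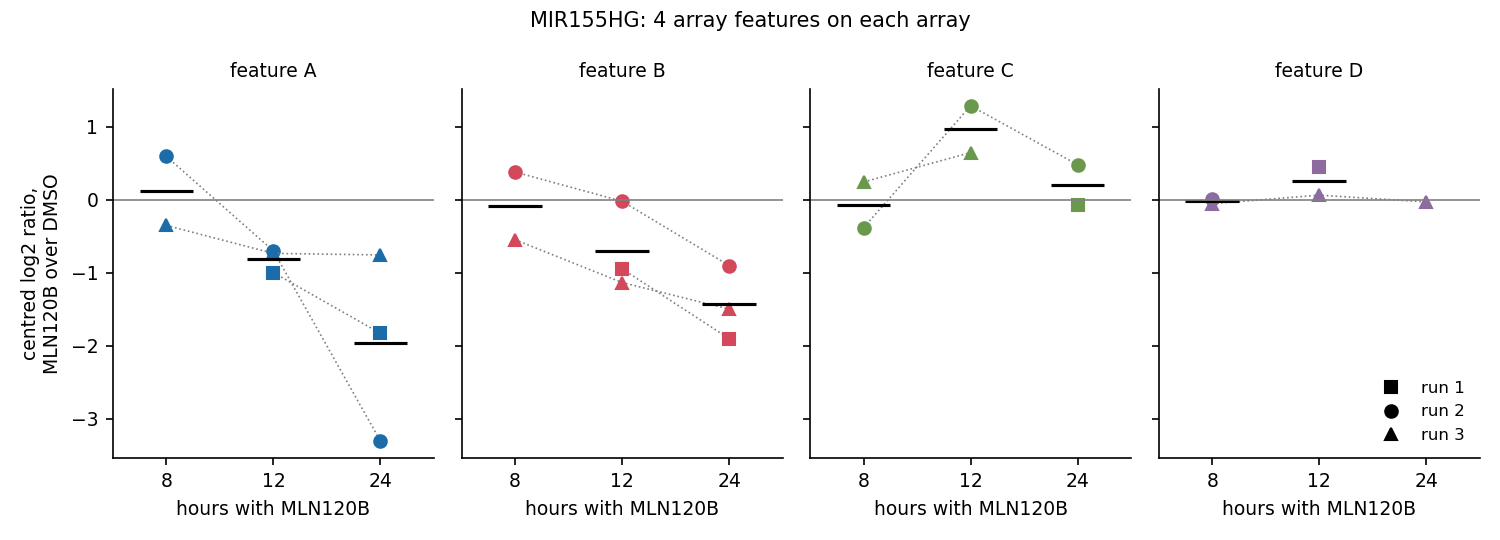
Centred log2 ratios, MLN120B over DMSO, of the 4 MIR155HG features (one panel each) against hours of treatment. Each point is an array, its shape gives the run, dotted lines join arrays of a run and black bars are means of 2 or 3 values. Features A and B decline to means of -1.97 and -1.44 at 24 h, while C and D stay between -0.39 and 1.29.

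Among each array's own features, A and B stood near the bottom at 24 h, except feature B on sample 1. Feature B was the 2nd lowest of 12986 features on sample 2 at 24 h, 17th of 9868 on sample 3 and 1160th of 6344 on sample 1. Feature A was 49th of 12986 on sample 2 at 24 h, 20th of 9868 on sample 3 and 20th of 6344 on sample 1. At 12 h on sample 2 features B and A were the 6th and 52nd lowest of 13007, and on sample 1 at 8 h, an array of the same run, the 86th and 468th lowest of 12519. On the arrays of run 2 before 24 h features B and A lay further up: 68.1% and 76.6% of features were lower than they on sample 2 at 8 h, and 49.2% and 25.5% on sample 1 at 12 h. Feature D never left the middle and upper ranks, with 37.1% to 85.8% of features lower, and for C the range was 29.9% to 99.4%.

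**Figure D2:**
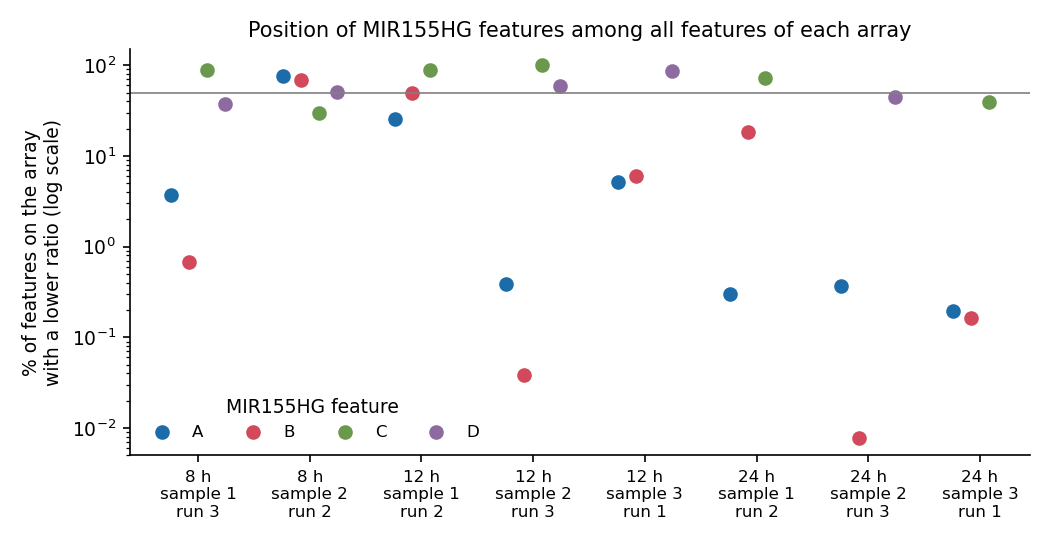
Percentage of features on each array with a lower ratio than the given MIR155HG feature, on a log axis, for the 8 arrays ordered by time. The grey line marks 50%. At 24 h on samples 2 and 3 features A and B have 0.0077% to 0.37% of features below them, and C and D have 39.7% and 44.5%.

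The distance between features was wide for a gene. At 24 h the means of the 4 features spanned 2.17 on the log2 scale, while the median span over 2498 genes with at least 2 features was 0.41, and 14 of those genes had a wider one. Among the 297 genes with 4 features at 24 h the median span was 0.61, and 4 had a wider one. The span of MIR155HG ran from feature A at -1.97, with -3.31 on sample 1 of the widely spread run 2, to feature C at 0.20. The means do not cover the same arrays, as C had values on samples 1 and 3 and D on sample 2 alone. The gene was also chosen for its low ratios at 24 h. Over the 8 arrays, A and B correlated at r = 0.53. Over the 6 arrays they share with it, C correlated at -0.21 with A and at 0.075 with B. These correlations describe arrays of 3 runs with unequal spread.

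Restricted to the 2 features with values on all 8 arrays, a choice made after the data were seen, MIR155HG stood at -0.45 on sample 1 and 0.48 on sample 2 at 8 h. At 12 h it stood at -0.36, -0.94 and -0.97 on samples 1, 2 and 3, and at 24 h at -2.11, -1.13 and -1.87. The means were 0.016 ± 0.66 at 8 h (SD, n = 2), -0.76 ± 0.34 at 12 h (SD, n = 3) and -1.70 ± 0.51 at 24 h (SD, n = 3). Again every sample at 24 h lay below every sample at 12 h, and sample 1 at 8 h lay among the samples at 12 h. Neither feature alone separated 24 h from 12 h. Feature A stood at -0.76 on sample 2 at 24 h, above -1.0 on sample 3 at 12 h. Feature B stood at -0.90 on sample 1 at 24 h, above -1.14 and -0.95 on samples 2 and 3 at 12 h.

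Arrays of one run allow the times to be compared within it. For the gene mean, 24 h minus 12 h was -0.77 in run 1, -1.43 in run 2 and -0.47 in run 3, lower at 24 h in 3 of 3 runs. The gene mean does not average the same features on every array: in run 3 feature C had a value of 0.64 at 12 h and none at 24 h, and in run 1 feature D had a value only at 12 h and feature C only at 24 h. Over the 2 complete features the same difference was -0.89 in run 1, -1.74 in run 2 and -0.19 in run 3. The difference 24 h minus 8 h, which runs 2 and 3 allow, was -1.39 and -0.58 for the gene mean, and -2.59 and -0.68 over the complete features. The step 12 h minus 8 h was 0.039 in run 2 and -0.11 in run 3 for the gene mean, but -0.85 and -0.48 over the complete features. Feature B was lower at the later time in every such pair, by 24 h minus 12 h values of -0.96, -0.88 and -0.36 in runs 1, 2 and 3. Feature A gave -0.83, -2.60 and -0.021, so in run 3 it was level between 12 h and 24 h. Feature C lay higher at 12 h than at 8 h, by 1.67 in run 2 and 0.40 in run 3. In run 2 its 24 h value was 0.81 below that of 12 h and 0.86 above that of 8 h. Feature D moved by at most 0.12 within run 3, the only run where it had values at more than a single time.

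NF-κB feedback and subunit genes were set beside it on the same arrays. NFKBIA, which encodes IκBα, stood at -0.53 and -0.30 on samples 1 and 2 at 8 h, at -1.33, -0.82 and -1.60 on samples 1, 2 and 3 at 12 h, and at -0.99, -0.93 and -1.42 at 24 h. It was thus below 0 on 8 of 8 arrays and as low at 12 h as at 24 h. TNFAIP3, which encodes the NF-κB feedback regulator A20, averaged -0.38 ± 0.39 at 8 h (SD, n = 2), -0.95 ± 0.58 at 12 h and -1.20 ± 0.58 at 24 h (SD, n = 3 each). RELB, a subunit of the alternative pathway, stood at 0.41 and 0.45 on the arrays of run 2 at 8 h and 12 h and at -0.90 on that of 24 h, and between -0.33 and -1.09 on the other 5 arrays. NFKB2, the precursor of the p52 subunit, averaged -1.43 ± 0.84 at 24 h and was lowest on the arrays of run 2, at -2.54, -2.39 and -2.35. Of the other genes of the NF-κB list that the study chose in part on these arrays, NFKBIE stood at -1.25 ± 0.52, CD74 at -1.01 ± 0.38, MALT1 at -0.85 ± 0.27, WNT10A at -0.78 ± 0.28, IL2RG at -0.60 ± 0.21 and PLEK at -0.059 ± 1.34 at 24 h (moderated SE). The mean of NFKBIE rested on sample 1, with -3.27, -0.096 and -0.40 on samples 1, 2 and 3 at 24 h. CD74 had -1.78 on sample 1, against -0.26 and -0.98 on samples 2 and 3.

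The gene whose pattern was most like that of MIR155HG was CXCR4, which encodes the receptor for the chemokine CXCL12 that holds plasma cells in the bone marrow. Likeness was the Pearson correlation over 8 arrays, after each array's ratios were divided by their SD, among 2285 named genes with values on all arrays. CXCR4 reached r = 0.93 (Spearman rho = 1.00, so the 8 arrays had the same order), and r = 0.87 without samples 2 and 3 at 24 h. These were the arrays farthest from the median of MIR155HG after the same division by each array's SD, not on the undivided ratios. It stood at -0.15 and 0.10 on samples 1 and 2 at 8 h, at 0.19, -0.29 and -0.31 on samples 1, 2 and 3 at 12 h, and at -0.48, -0.35 and -0.61 at 24 h. Its ratios at 24 h were smaller in size than those of MIR155HG, and they rest on 8 features. CXCR4 ranked highest by all 4 measures tried: scaled Pearson, Spearman, unscaled Pearson, and scaled Pearson against the 2 complete features alone.

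The next in order were less stable. RGS16, a regulator of G protein signalling, had r = 0.90 but rho = 0.19. NEK6, a mitotic kinase gene, had r = 0.89 and rho = 0.24. RUNX3, a lymphocyte transcription factor, had r = 0.89 and rho = 0.43, and CNOT9, a subunit of the CCR4-NOT deadenylase, had r = 0.88 and rho = 0.67. Of these 5, 1 was among the 5 highest by Spearman, 1 by unscaled Pearson and 3 against the complete features, and CXCR4 was the shared gene in the first 2 counts. TNFAIP3 had r = 0.87, NFKBIA 0.80, RELB 0.79 and NFKB2 0.74, and the rho values were 0.26, 0.45, 0.81 and -0.17. Without samples 2 and 3 at 24 h, r was 0.57 for TNFAIP3, 0.65 for NFKBIA, 0.82 for RELB and -0.051 for NFKB2. Likewise it was 0.80 for RGS16, 0.61 for NEK6, 0.54 for RUNX3 and 0.53 for CNOT9.

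ITGB7, which encodes the integrin β7 chain, had the lowest scaled Pearson correlation with MIR155HG, at r = -0.95 (rho = -0.98), and r = -0.91 without the same 2 arrays. It was the 2nd lowest by Spearman and by unscaled Pearson, and the 7th lowest against the 2 complete features. It stood at 0.36 and -0.15 on samples 1 and 2 at 8 h, at -0.40, 0.43 and 1.23 on samples 1, 2 and 3 at 12 h, and at 1.47, 0.83 and 2.04 at 24 h. SCD, the stearoyl-CoA desaturase of fatty acid synthesis, followed at r = -0.94 (rho = -0.90) and EIF6, a ribosome maturation factor, at r = -0.93 (rho = -0.67). Without the same 2 arrays, r was -0.69 for SCD and -0.82 for EIF6. These correlations describe 8 arrays that share 3 runs and an order in time, carry no p-value, and were the extremes of 2285.

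**Figure D3:**
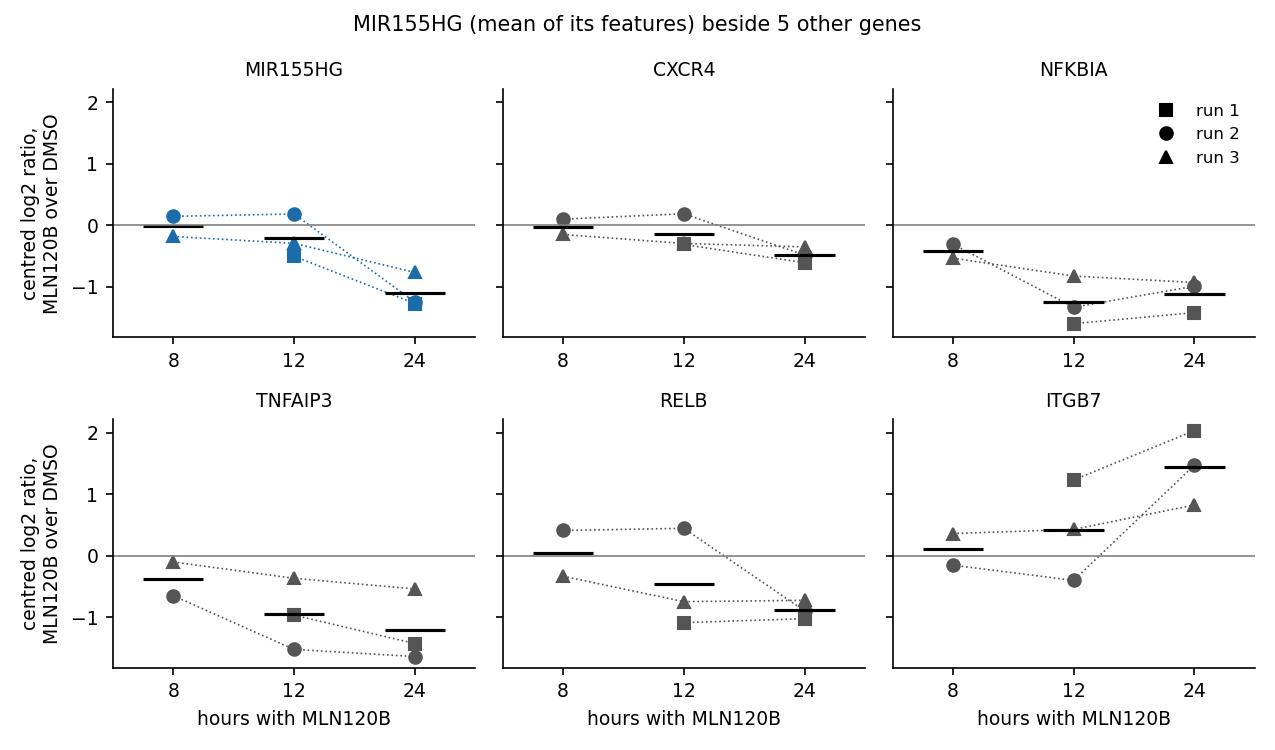
Centred log2 ratios, MLN120B over DMSO, of MIR155HG (mean of its features, top left) and 5 other genes against hours of treatment. Points are arrays, shapes are runs, dotted lines join arrays of a run and black bars are means. MIR155HG and CXCR4 have the same order of arrays, with means at 24 h of -1.09 and -0.48, ITGB7 stands at 1.45 at 24 h, and NFKBIA is already at -1.25 at 12 h.

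Genes reported to act on the MIR155HG promoter were examined in a limma fit of all 5411 rows measured on 2 or more arrays of every time. Of 30 listed genes 27 were measured and 25 tested, and at 24 h 0 passed the adjusted threshold in limma, as did 0% of all rows. At an unadjusted p under 0.05, 4 of 25 were lower and 0 higher, where 1.48% of all rows were lower and 0.536% higher. The 4 were NFKB2 at -1.43 ± 0.53, RELB at -0.88 ± 0.30, NFKB1 at -0.77 ± 0.32 and ETS1 at -0.56 ± 0.20 (moderated SE, n = 3 at 24 h). NFKB1 encodes the p105 precursor of p50, and ETS1 a lymphoid transcription factor. NFKB2 and RELB belong to a list that the study chose in part on these arrays, so they are no independent evidence.

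For NFKB1 the mean rested on sample 1, with -1.74, 0.006 and -0.59 on samples 1, 2 and 3 at 24 h. ETS1 stood at -0.14 and 0.38 on samples 1 and 2 at 8 h, at -0.68, -0.40 and -0.57 on samples 1, 2 and 3 at 12 h, and at -0.26, -0.68 and -0.73 at 24 h. Like the 2 complete MIR155HG features it was above 0 on sample 2 at 8 h and below 0 on the other arrays. This was seen in the values, and the share of all rows with these signs was not counted. The means of ETS1 were level at 12 h and 24 h, at -0.55 and -0.56, where those of the complete features were -0.76 and -1.70. Of 7 tested genes of the AP-1 family, 5 lay below 0 at 24 h and 0 were at an unadjusted p under 0.05 in limma. JUND stood at -0.65 ± 0.36, FOSB at -0.37 ± 0.30, JUN at -0.30 ± 0.73, JUNB at -0.21 ± 0.21, BATF at -0.11 ± 0.25, FOSL2 at 0.10 ± 0.26 and FOS at 0.14 ± 0.40. The mean of JUND rested on sample 1, with -1.845, -0.30 and 0.21 on samples 1, 2 and 3 at 24 h. MYB stood at -0.52 ± 0.26 and IRF4, the plasma cell regulator, at -0.035 ± 0.23. The highest were HDAC2, a histone deacetylase, at 0.16 ± 0.21, ETS2 at 0.17 ± 0.69 and TGFB1 at 0.25 ± 0.25. FOSL2, ETS2 and TGFB1 had no value on sample 1 at 24 h, so their means rest on samples 2 and 3. The median of the 25 was -0.093 at 24 h, with 15 below 0, beside a median of -0.024 and 53.6% below 0 for all rows.

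Genes reported as targets of miR-155 in human or mouse lay on both sides of 0 at 24 h, when the host gene stood at -1.09. Of 58 listed, 39 were measured and 36 tested, and at 24 h 20 lay below 0 and 16 above, with a median of -0.042. All rows had a median of -0.024 with 53.6% below 0, so the list stood near them. In limma 0 passed the adjusted threshold at 8 h, 12 h or 24 h, as did 0% of all rows at each time. At an unadjusted p under 0.05 at 24 h, 1 of 36 was lower (ETS1, also on the regulator list) and 0 were higher, beside 1.48% lower and 0.536% higher of all rows. The lowest were MORC3, a chromatin protein gene, at -0.66 ± 0.34, ETS1, and CBFB, the partner subunit of RUNX factors, at -0.50 ± 0.30 (moderated SE, n = 3). The highest were MYD88, an adaptor of Toll-like receptors, at 0.58 ± 0.35, SKI, a repressor of TGF-β signalling, at 0.46 ± 0.33, and CTLA4 at 0.44 ± 0.28. The mean of MYD88 rested on sample 1, with 1.76 there against -0.070 and 0.055 on samples 2 and 3, and MORC3 had -1.82 there against -0.051 and -0.11. CTLA4 had 1.28 on sample 1 against 0.105 and -0.047. SKI had 1.048 there against 0.054 and 0.281, and CBFB -1.138 against -0.322 and -0.049. The list median was -0.072 at 8 h and -0.16 at 12 h, beside -0.002 and -0.0035 for all rows. Below 0 were 23 of 36 at 8 h and 24 at 12 h, beside 50.2% and 50.5% of all rows. For the mean of the 3 times 27 of 36 lay below 0, beside 51.6% of all rows. The list as a whole was not tested.

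Enzymes and cofactors of microRNA processing were examined for the step after the host transcript. Of 23 listed, 11 were tested, with a median of -0.16 at 24 h, 6 below 0 and 5 above. All rows had a median of -0.024, with 53.6% below 0. In limma 0 of the list passed with or without adjustment. Of all rows 0% passed with adjustment, and at an unadjusted p under 0.05 1.48% were lower and 0.536% higher. HNRNPA1 at -0.52 ± 0.28, the helicase gene DDX5 at -0.44 ± 0.31 and RAN, which drives nuclear export, at -0.37 ± 0.27 were lowest (moderated SE, n = 3). AGO2, the slicing Argonaute, at 0.33 ± 0.32, DICER1 at 0.23 ± 0.37 and TNRC6B at 0.16 ± 0.23 were highest. DICER1 had no value on sample 1 at 24 h. On sample 1 at 24 h, of run 2, the median of this list was -0.74, against -0.048 and 0.070 on samples 2 and 3.

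Other microRNA host genes lay closer to 0 at 24 h than the mean of MIR155HG, which was chosen for standing low there. That order was thus set by the choice of the gene. MIR155HG features C and D alone, at 0.20 and -0.032, lay within the range of the tested host genes. Of 41 listed, 10 were tested, with a median of -0.095 at 24 h and means from -0.49 for DLEU2, the host of miR-15a and miR-16-1, to 0.24 for MCM7, the host of the miR-106b cluster. In limma 0 passed at 24 h with or without adjustment. Of all rows 0% passed with adjustment, and at an unadjusted p under 0.05 1.48% were lower and 0.536% higher. IARS1 stood at -0.34 ± 0.32 and SREBF2, the host of miR-33a, at -0.19 ± 0.31, while HNRNPK stood at 0.037 ± 0.19 and TRPM1 at 0.22 ± 0.52 (moderated SE). TRPM1 had no value on sample 1 at 24 h. DLEU2 had -1.41 on sample 1 at 24 h, against 0.022 and -0.071 on samples 2 and 3. IARS1 had -1.214 on sample 1, against -0.001 and 0.196.

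**Figure D4:**
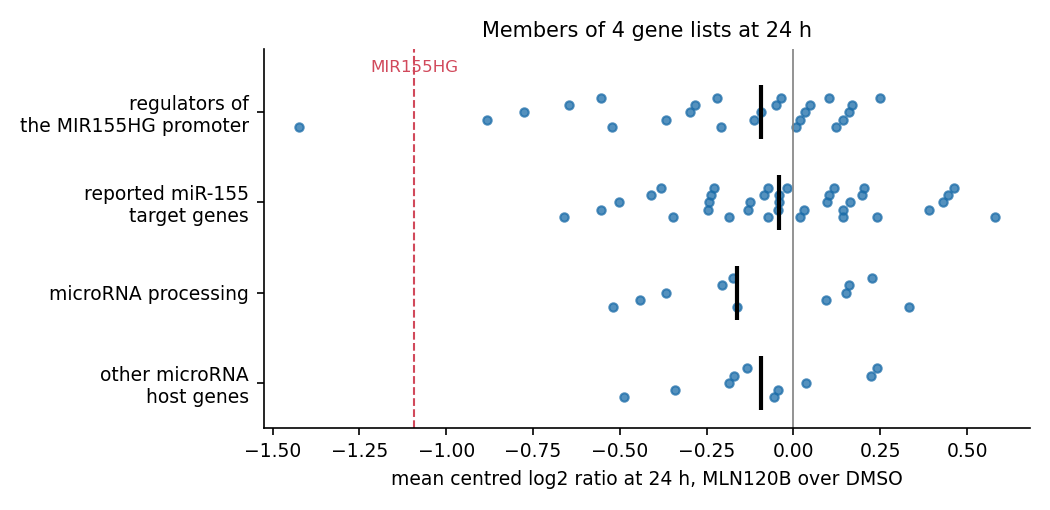
Mean centred log2 ratio at 24 h, MLN120B over DMSO, of each tested member of 4 gene lists, one point per gene. Vertical offsets only separate points, black bars are list medians, and the dashed line marks MIR155HG at -1.09. NFKB2 alone, at -1.43, lies to the left of that line. MIR155HG was chosen for standing low at 24 h.

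The genes next to MIR155HG on chromosome 21 were examined by their order in the RefSeq annotation, taking the 3 nearest tested on each side. Before it, C21orf91 stood at 0.36 ± 0.28 at 24 h, BTG3, an antiproliferative gene, at -0.13 ± 0.25 and SAMSN1, a B cell adaptor gene, at 0.48 ± 0.27 (moderated SE, n = 3). After it, ATP5PF, a subunit of ATP synthase, stood at -0.030 ± 0.25, LTN1, a ubiquitin ligase of stalled ribosomes, at -0.44 ± 0.25 and RWDD2B at -0.47 ± 0.22. LTN1 had -1.1 on sample 1 at 24 h, against 0.149 and -0.367 on samples 2 and 3. C21orf91 had 0.974 on sample 1, against -0.003 and 0.096, and SAMSN1 1.017, against 0.002 and 0.41. None of the 6 had an unadjusted p under 0.05 in limma at 24 h, and RWDD2B came nearest at 0.055, with -0.96 on sample 1 against -0.27 and -0.19 on samples 2 and 3. At that threshold 1.48% of all rows were lower and 0.536% higher. Other genes of the region were not tested here.

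Genes of activated and germinal centre B cells, the stage in which MIR155HG is best known, had a median of 0.071 at 24 h over 17 tested of 24 listed, with 7 below 0. The lowest were ICAM1 at -0.30 ± 0.34, CD69 at -0.30 ± 0.71 and CD86 at -0.27 ± 0.71, and the highest LMO2 at 0.30 ± 0.38, CD44 at 0.24 ± 0.21 and TRAF1 at 0.24 ± 0.40 (moderated SE). CD86 had no value on sample 1 at 24 h. On that sample CD69 had -1.07, against -0.117 and 0.301 on samples 2 and 3, and LMO2 had 1.09, against 0.152 and -0.349. Plasma cell markers had a median of 0.14 over 10, B cell markers 0.17 over 6, T cell markers 0.14 over 7 and myeloid markers -0.35 over 5 at 24 h. In limma 0 genes of these 5 lists passed at 24 h with or without adjustment. Of all rows 0% passed with adjustment, and at an unadjusted p under 0.05 1.48% were lower and 0.536% higher. Over the 8 arrays the myeloid median ran from -0.91 to 0.68, both on arrays of run 2. The part of other cell types in the MIR155HG values was not tested.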

How the data were processed

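The authors deposited log2 ratios, 1 per feature and array, and these were analysed. Per the labels, the channels were MLN120B in Cy5 and DMSO in Cy3. How the ratios were background-corrected, filtered and normalized, and any genome build, is not given in the sources used here. Each array was centred on its median (-0.48 to 0.001 before). Of the features 10169 had a single annotated gene, 4 several and 5073 no gene listed. Symbols were updated through RefSeq names of GRCh38.p14 (10128 by Entrez identifier, 17 by accession, 24 kept). Features of a gene were averaged. Alternatives were other scalings and filters, single features, array weights, blocks for sample number and run, and arrays or runs left out.

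A mean per time was fitted with limma 3.58.1 (lmFit, eBayes) in R 4.3.3 to all 8 arrays, for 5411 rows, 3311 of them named. Tests set the ratio against 0, and the DMSO control enters each ratio, so its spread is not estimated apart. Tests were 2-sided with Benjamini-Hochberg adjustment over all rows at 0.05, and the fit was tested on simulated data. Python 3.11.15, pandas 2.3.3 and matplotlib 3.10.9 prepared tables and plots. The gene and the lists were chosen with earlier results of these data known. Genes named were MIR155HG, the 4 NF-κB genes, the 5 most and 3 least alike, the 3 highest and lowest of each list at 24 h with any at an unadjusted p under 0.05, and the 3 tested neighbours on each side. AP-1 genes, MYB and IRF4 were named besides, after their values were seen. Of the marker lists the report gives medians, and it names BLK and TYROBP among the flagged differences. The study's NF-κB list was known from earlier work on these data, which recalled it from the study's paper. These same arrays helped to choose its genes: at 24 h its 10 tested genes had a median of -0.94, 0 passed with adjustment (0% of all rows) and 9 were lower at an unadjusted p under 0.05 (1.48% of all rows).

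Sample numbers of 12 h and 24 h paired: deviations of same-numbered samples from their time means correlated at 0.20, 0.26 and 0.30 over 3460 rows, and these pairs are also those of the runs. For 8 h they correlated at -0.32 to -0.15 with the same numbers at 12 h and 24 h. A promoter search for a longer motif of the IRF factors was also made; its outcome was seen and is not reported here, so the motifs given are not every motif searched.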

Additional observations from a re-analysis of the deposited data

Results flagged for a closer look

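For 9 differences between times among the named genes, with at least 2 values at both times, every sample of a time lay on one side of 0 and every sample of the other time on the other side. These differences were not tested, and groups of 2 or 3 meet this often: 6.58% of 5411 rows did for 24 h and 8 h, 2.99% for 24 h and 12 h and 4.16% for 12 h and 8 h, and 76 genes were looked at. For 24 h minus 8 h the log2 difference was -0.87 for MORC3, -0.80 for CBFB, 0.32 for ETS2, 0.87 for BLK and -0.62 for RWDD2B. For 24 h minus 12 h it was 0.47 for TNRC6B and 0.55 for TYROBP. For 12 h minus 8 h it was -0.59 for TYROBP and -0.35 for LTN1. The gene mean of MIR155HG was not among them, since it lay on both sides of 0 at 8 h and at 12 h. Its feature D, at 0.061 and 0.45 at 12 h, lay at -0.032 at 24 h, but on a single array.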

How the results depend on the processing

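All values here are log2, and MIR155HG is the mean of its features unless said. At 24 h it was below 0 under 22 of 23 alternatives, the exception being feature C alone, and 24 h minus 12 h under 23 of 23. Many alternatives could not change the 24 h mean, such as the blocks or leaving out arrays of other times, which left it at -1.09. The gene was also chosen for standing low at 24 h, so these counts are a description only. Settings moved sizes. With each array scaled to the mean SD, MIR155HG stood at -0.25 at 8 h and -1.74 at 24 h, 24 h minus 8 h was -1.49 and 24 h minus 12 h -1.31. After quantile normalization, these were -1.97 at 24 h, -1.75 for 24 h minus 8 h and -1.62 for 24 h minus 12 h. With feature A alone the values were -0.81 at 12 h, -1.97 at 24 h, -2.09 for 24 h minus 8 h and -0.93 for 12 h minus 8 h. With feature B alone they were -0.70 at 12 h, -1.44 at 24 h and -0.62 for 12 h minus 8 h. With feature C alone they were 0.96 at 12 h, 0.20 at 24 h, 0.27 for 24 h minus 8 h and 1.04 for 12 h minus 8 h. With feature D alone they were 0.25 at 12 h, -0.032 at 24 h, -0.007 for 24 h minus 8 h, -0.29 for 24 h minus 12 h and 0.28 for 12 h minus 8 h. With the features measured on all 8 arrays they were -0.76 at 12 h, -1.70 at 24 h, -1.72 for 24 h minus 8 h and -0.77 for 12 h minus 8 h. Without run 3, which leaves a lone array at 8 h, 24 h minus 8 h was -1.41. The cause was not tested. The estimate of limma's array weights did not reach its convergence tolerance, so values under those weights are approximate.

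With the sample number as a block (the replicate block), MIR155HG stood at -0.13 at 8 h, -0.20 at 12 h and -1.09 at 24 h, 24 h minus 8 h was -0.96, and no count of adjusted calls changed. Leaving out each array in turn gave -0.18 to 0.15 at 8 h, -0.40 to -0.053 at 12 h and -1.26 to -1.004 at 24 h. It gave -1.24 to -0.91 for 24 h minus 8 h, -1.06 to -0.70 for 24 h minus 12 h and -0.38 to -0.023 for 12 h minus 8 h.

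In limma, adjusted calls over all rows were 0 at each time and 0 over the 3 times, with 130, 166, 109 and 184 at an unadjusted p under 0.05. They became 2 at 24 h and 1 over the 3 times with scaled arrays, and 2 and 3 after quantile normalization. They became 6 over the 3 times with the run as a block, and 22 at 8 h and 10 over the 3 times without run 3. Leaving out single arrays gave 0 to 131 at 8 h and 0 to 58 over the 3 times, the high values without sample 1 at 8 h, which leaves a lone array at that time, assumed to vary like the others. The target list's median at 24 h was -0.18 as deposited and -0.046 to 0.047 without single arrays. The regulator list's was -0.21 as deposited, -0.22 for rows with values on all 8 arrays, -0.41 without run 1, and -0.41 to -0.042 without single arrays (-0.41 without sample 3 at 24 h). As deposited, the array medians shift every value.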
